A study of Homo sapiens with 12 samples.

Results

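Integrins and laminins were followed in U2OS-MycER cells, as the RNA that these cells made during a short labelling pulse. The members were chosen by gene symbol, from the integrin alpha subunits numbered or lettered V, E, L, M or X, the integrin beta subunits and the laminin chains. Those described were 35 of the 23434 genes in the count table, 24 integrins (16 alpha, 8 beta) and 11 laminins. U2OS is a human osteosarcoma line, and its MycER derivative expresses a chimera of Myc and the estrogen receptor that 4-hydroxytamoxifen (OHT) activates. Cells of all groups carried a short hairpin RNA (shRNA) switched on by 1 µg/mL doxycycline, either a non-targeting one (shNT) or one against CDK12 (shCDK12), and were left without OHT or given 300 nM OHT for 40 h. All were arrested with 100 ng/mL nocodazole for 8 h, collected by shake-off, released for 12 h and labelled with 0.5 mM 5-ethynyl-uridine (EU) for the last 2 h, and newly made RNA was sequenced (EU-seq). There were 3 libraries in each of the 4 groups shNT, shNT+OHT, shCDK12 and shCDK12+OHT. The labels do not say whether these were separate cultures or how many shRNA sequences or clones were used, so the p-values measure the spread between these libraries, which may be technical.

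Integrins are receptors that join cells to the matrix around them, each made of an alpha and a beta subunit, and the alpha subunit largely sets which matrix protein is bound. Laminins are matrix proteins of the basement membrane, each assembled from an alpha, a beta and a gamma chain, and integrins such as those with ITGA3, ITGA6 and ITGA7 bind them. Bone cells attach to collagens and fibronectin among other matrix proteins, and ITGB1 is the beta subunit that most matrix receptors share.

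The libraries held 1251695 to 10447836 counts, and the shNT+OHT group held the shallowest, replicate 2. Levels are given as CPM, counts scaled to a common library size after correction by the trimmed mean of M values (TMM), and changes as log2 fold changes with their standard errors from edgeR's quasi-likelihood test, with p-values adjusted over all genes tested by the Benjamini-Hochberg method and called under 0.05. Newly made RNA of the targeted gene was set beside the labels. CDK12 stood at 323, 289 and 300.2 CPM in shNT and at 434, 356 and 400.5 in shNT+OHT. It stood at 293, 277 and 298 in the libraries labelled shCDK12 and at 215, 208 and 218 in those labelled shCDK12+OHT. Only the groups with OHT were apart in the direction of the label (log2 fold change -0.88 ± 0.11, adjusted p = 0.00011). Without OHT the groups were not shown to differ (log2 fold change -0.08 ± 0.08, adjusted p = 0.447). The gap with OHT joined a rise upon OHT in shNT (log2 fold change 0.38) and a fall in the libraries labelled shCDK12 (-0.44). Both were called, and so was their interaction of -0.83. The rise was no longer called when some single libraries were left out. The groups are therefore named by their labels throughout, and whether CDK12 was silenced in the libraries labelled shCDK12 without OHT cannot be read from its own RNA. Defining markers of osteoblast and mesenchymal cells were present, 5 of 8 of them above the filter on low counts. Those of leukocytes, endothelium and platelets were near the bottom, with summed levels of at most 4.93, 5.10 and 6.27 CPM in any library, and no member of these 3 lists passed the filter. Epithelial markers were low but less so, at a summed 9.90 to 15.5 CPM, and 1 of the 4 passed the filter.

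The 35 members together took 0.228% ± 0.00720 (SD, n = 3) of the counts in shNT, 0.173% ± 0.00763 in shNT+OHT, 0.116% ± 0.00473 in the libraries labelled shCDK12 and 0.167% ± 0.00261 in those labelled shCDK12+OHT. The share was thus highest in shNT and lowest in the libraries labelled shCDK12, and it moved down upon OHT in shNT and up upon OHT in the others. Summed over the 24 integrins, the level ran from 1343 to 1440 CPM in shNT, 923 to 1017 in shNT+OHT, 568 to 607 in the libraries labelled shCDK12 and 882 to 917 in those labelled shCDK12+OHT. Summed over the 11 laminins it ran from 872 to 916, 769 to 917, 532 to 563 and 729.8 to 749 CPM in the same order. The integrin sum therefore fell outside the shNT range in all 3 other groups, while the laminin sum overlapped between shNT and shNT+OHT. A table without mouse spike-in rows shows shares of newly made RNA, not the total amount per cell. Fewer cells making an RNA and less RNA made per cell cannot be told apart in these bulk libraries.

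Per kilobase of annotated exon, LAMB3 was the most abundant member in shNT at 79.9 ± 2.65 CPM per kb (SD, n = 3), followed by ITGA3 at 48.9 ± 1.20, LAMC1 at 20.7 ± 1.21 and ITGB1 at 19.4 ± 0.170. LAMC1 and ITGB1 were close, but their libraries did not overlap. ITGA6, ITGB5, LAMB2 and ITGA5 came next at 13.6, 12.1, 11.2 and 11.1 CPM per kb, each overlapping its neighbour in that order. In the libraries labelled shCDK12 LAMB3 stayed first at 27.0 CPM per kb, but ITGA5 and LAMC1 (13.8 and 13.4) stood next and ITGA3 was at 8.11. These cells thus made RNA for a fibronectin receptor (ITGA5 with ITGB1), for laminin receptors (ITGA3 or ITGA6 with ITGB1) and for receptors built on ITGAV, together with at least one chain of each laminin type. The exon lengths come from GENCODE v44 on a newer genome build than that of the counts and serve only to order genes.

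**Figure D1:**
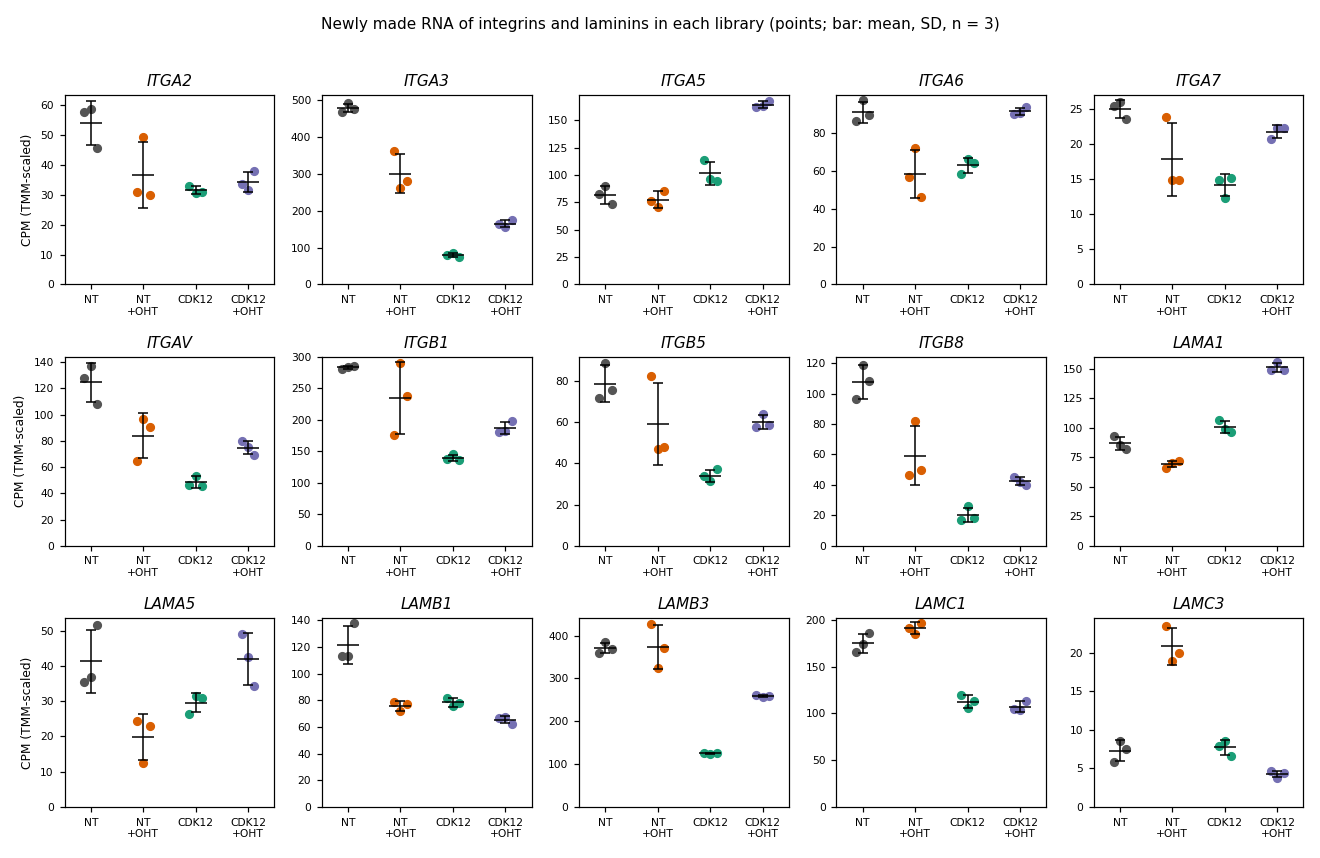
Newly made RNA of the 15 integrins and laminins described library by library, in CPM (linear axis from 0), for shNT (NT), shNT+OHT, and the libraries labelled shCDK12 and shCDK12+OHT. Points are libraries and the bars show the mean and SD of 3; ITGA3 spans 469.6 to 493 CPM in shNT and 74.9 to 84.4 in the libraries labelled shCDK12, and LAMC3 is highest in shNT+OHT.

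The first comparison asks what changed upon OHT, which activates MycER, in cells with the non-targeting shRNA. No cells without MycER were given OHT, so effects of OHT itself cannot be told apart from those of MycER. Of 16 members tested, 7 were called, 6 lower and 1 higher (43.8%, against a background of 17.3% of all genes tested, 8.29% lower and 9.05% higher). The integrins called were ITGA3, ITGA6, ITGAV and ITGB8, all lower, and the laminins were LAMA5 and LAMB1, lower, and LAMC3, higher. The median log2 fold change of the 16 members was -0.43, against -0.03 for all genes. The groups did not overlap for 8 of the 16 members, against 35.9% of all genes tested. Leaving out shNT replicate 3 left 3 calls, and leaving out shNT replicate 2 or shNT+OHT replicate 3 left 4. ITGA3 and ITGB8 were called under every alternative run, and LAMC3 under every one in which it passed the filter on low counts.

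In the libraries labelled shCDK12, OHT went with the opposite direction. Of 22 members tested, 14 were called, 12 higher and 2 lower (63.6%, background 48.9%, of which 27.5% higher and 21.5% lower), and the median was 0.39 against 0.05 for all genes. The integrins called were ITGA3, ITGA5, ITGA6, ITGA7, ITGAV, ITGB1, ITGB5 and ITGB8, all higher. The laminins called higher were LAMA1, LAMA5, LAMB2 and LAMB3, and LAMB1 and LAMC3 were lower. The groups did not overlap for 14 of the 22, against 56.3% of all genes tested. Of the 16 members tested in both backgrounds, 13 had fold changes of opposite sign, 11 of them down in shNT and up in the libraries labelled shCDK12. Across all genes tested in both, 71.1% had opposite signs and 39.1% went down and then up in that order, against 81.2% and 68.8% of the members, so an opposite sign is no property of the members alone. These comparisons share no library.

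**Figure D2:**
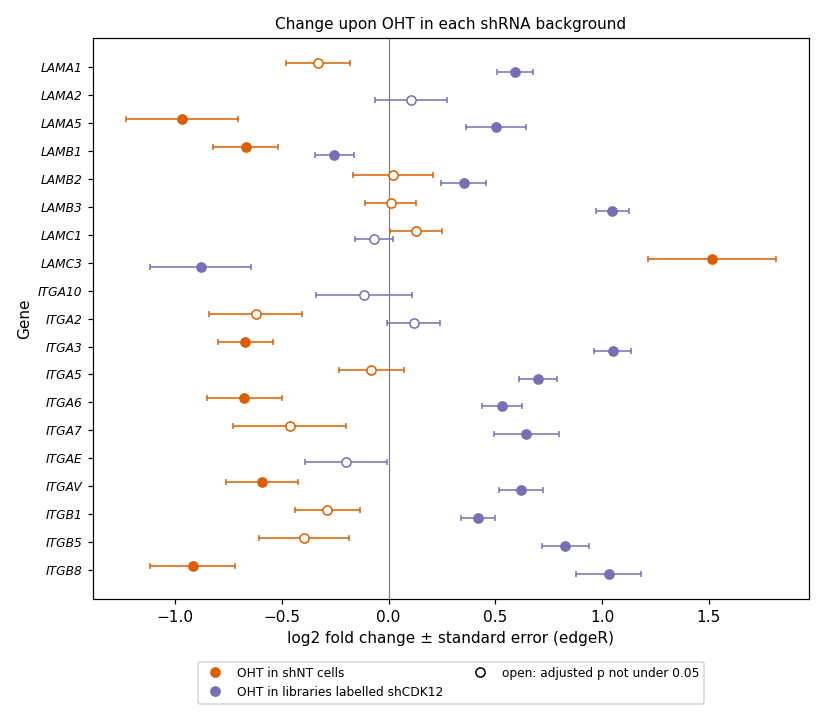
Log2 fold change upon OHT (x axis, bars show the standard error from edgeR) for the 19 members above the filter in the fit of all libraries, in shNT cells (orange) and in libraries labelled shCDK12 (purple); filled points have an adjusted p under 0.05. For most integrins the orange points lie left of 0 and the purple ones right of it, and LAMC3 shows the reverse.

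The interaction, the OHT response in the libraries labelled shCDK12 minus that in shNT over all 12 libraries, tests that difference gene by gene. It was called for 13 of 19 members tested, 12 positive and 1 negative (68.4%, background 45.2%, of which 25.6% positive and 19.6% negative). The median interaction of the members was 0.78 on the log2 scale against 0.10 for all genes. All genes' median moved by over 0.1 with the scaling, to -0.02 with upper-quartile normalization, so values of this size carry no direction of their own. LAMB1 and LAMB2 were called as well without shNT+OHT replicate 1, which raised the count to 15.

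ITGA3, a laminin receptor subunit, was the most abundant integrin per length in shNT, at 469.6, 493 and 477 CPM in shNT, 362, 261 and 279.8 in shNT+OHT, 79.2, 84.4 and 74.9 in the libraries labelled shCDK12 and 163, 157 and 176 in those labelled shCDK12+OHT. No pair of groups overlapped. OHT lowered it 1.59-fold in shNT (log2 fold change -0.67 ± 0.13, adjusted p = 0.00304) and raised it 2.07-fold in the libraries labelled shCDK12 (log2 fold change 1.05 ± 0.09, adjusted p = 3.7e-08), an interaction of 1.72 ± 0.16 (adjusted p = 5.69e-08). Its level in the libraries labelled shCDK12 was 6.03-fold below shNT (log2 fold change -2.59 ± 0.09, adjusted p = 5.93e-18), the largest fold change among the members in that comparison. With OHT in both, the libraries labelled shCDK12+OHT were 1.80-fold below shNT+OHT (log2 fold change -0.85 ± 0.13, adjusted p = 0.000549).

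ITGA6, the other broadly expressed laminin receptor subunit, stood at 86.2, 97.2 and 89.2 CPM in shNT, 56.7, 71.8 and 46.4 in shNT+OHT, 58.4, 66.1 and 64.2 in the libraries labelled shCDK12 and 90.2, 90.4 and 93.4 in those labelled shCDK12+OHT. The highest levels were therefore in shNT and in the libraries labelled shCDK12+OHT, which overlapped each other, and the other groups were lower. It fell upon OHT in shNT (log2 fold change -0.68 ± 0.18, adjusted p = 0.0183) and rose in the libraries labelled shCDK12 (log2 fold change 0.53 ± 0.09, adjusted p = 0.000128), with an interaction of 1.22 ± 0.19 (adjusted p = 3.88e-05). The call in shNT was lost without any of the shNT libraries, or without shNT+OHT replicate 3, taken singly, and with the length trend removed. With libraries thinned to equal depth the rise in the libraries labelled shCDK12 was not called. Antisense genes (ITGA6-AS1 and PDK1-AS1) overlap it in the annotation, and whether the counting used strand is not given in the sources used here. Genes on the other strand overlap many other members too, among them ITGA2, ITGA5, ITGA7, ITGAE, ITGB1, ITGB5, ITGB8, LAMB1 and LAMC1.

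ITGA7, best known as a laminin receptor of muscle, was less abundant, at 25.3, 26.0 and 23.6 CPM in shNT, 23.8, 14.8 and 14.8 in shNT+OHT, 14.8, 12.3 and 15.2 in the libraries labelled shCDK12 and 20.6, 22.2 and 22.3 in those labelled shCDK12+OHT. In shNT+OHT, replicate 1 stood with the shNT libraries and the others lay below them, and the change there was not called (log2 fold change -0.46 ± 0.27, adjusted p = 0.244). It rose in the libraries labelled shCDK12 upon OHT (log2 fold change 0.64 ± 0.15, adjusted p = 0.00189), and the interaction was 1.10 ± 0.29 (adjusted p = 0.0043). All 3 laminin-binding alpha subunits thus had a called positive interaction, and all 3 were lower in the libraries labelled shCDK12 than in shNT, with log2 fold changes of -0.53 for ITGA6 and -0.85 for ITGA7.

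ITGB1, the shared beta subunit, stood at 280.1, 284 and 285 CPM in shNT, 176, 290.4 and 238 in shNT+OHT, 138, 145 and 136 in the libraries labelled shCDK12 and 181, 182 and 198 in those labelled shCDK12+OHT. The shNT libraries lay close together, and those of shNT+OHT spread over a range that took in the level of shNT. The OHT change in shNT was not called (log2 fold change -0.29 ± 0.15, adjusted p = 0.211) but became so without shNT+OHT replicate 2. In the libraries labelled shCDK12 it rose 1.34-fold (log2 fold change 0.42 ± 0.08, adjusted p = 0.000284), from a level 2.03-fold below shNT (log2 fold change -1.02 ± 0.09, adjusted p = 1.92e-10), and the interaction was 0.71 ± 0.18 (adjusted p = 0.00306).

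ITGA5, the alpha subunit of the classical fibronectin receptor, went another way. It stood at 82.5, 90.2 and 73.7 CPM in shNT, 76.1, 70.9 and 85.5 in shNT+OHT, 113, 96.5 and 94.7 in the libraries labelled shCDK12 and 162, 163 and 168 in those labelled shCDK12+OHT. The shNT groups overlapped, the libraries labelled shCDK12 lay just above them, and those labelled shCDK12+OHT were far above all others. OHT raised it 1.62-fold in the libraries labelled shCDK12 (log2 fold change 0.70 ± 0.09, adjusted p = 4.47e-06) with no call in shNT (log2 fold change -0.08 ± 0.15, adjusted p = 0.759; 95% interval -0.38 to 0.22), an interaction of 0.78 ± 0.17 (adjusted p = 0.00085). With OHT in both, the libraries labelled shCDK12+OHT were 2.13-fold above shNT+OHT (log2 fold change 1.09 ± 0.12, adjusted p = 6.84e-05). Without OHT the difference was small (log2 fold change 0.29 ± 0.11, adjusted p = 0.0285) and was no longer called without shNT replicate 1, shNT replicate 3 or shCDK12 replicate 1, or at equal depth.

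The ratio of ITGA5 to ITGA3 counts, which needs no scaling between libraries and was chosen after the levels were seen, was 0.155 to 0.183 in shNT, 0.211 to 0.306 in shNT+OHT, 1.14 to 1.43 in the libraries labelled shCDK12 and 0.956 to 1.04 in those labelled shCDK12+OHT. The groups did not overlap, and the shRNA label went with a larger shift than OHT did. The ratio shows unequal change, not which of the genes moved.

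ITGAV, the alpha subunit of the vitronectin receptors, stood at 128, 137 and 108 CPM in shNT, 64.2, 96.5 and 90.8 in shNT+OHT, 46.6, 53.5 and 45.3 in the libraries labelled shCDK12 and 79.7, 75.3 and 69.5 in those labelled shCDK12+OHT. The shNT libraries were highest and those labelled shCDK12 lowest, and only the groups with OHT overlapped. It fell upon OHT in shNT (log2 fold change -0.59 ± 0.17, adjusted p = 0.0255), a call lost without any of the shNT libraries, without shNT+OHT replicate 3, at equal depth or with the length trend removed, and rose in the libraries labelled shCDK12 (log2 fold change 0.62 ± 0.10, adjusted p = 8.96e-05). The interaction was 1.22 ± 0.21 (adjusted p = 7.61e-05). Without OHT its level was 2.58-fold lower in the libraries labelled shCDK12 (log2 fold change -1.36 ± 0.12, adjusted p = 2.94e-10).

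Among the beta partners of ITGAV, ITGB8, which presents latent TGF-beta for activation, stood at 96.5, 119 and 108 CPM in shNT, 46.4, 81.7 and 49.9 in shNT+OHT, 16.9, 25.8 and 17.9 in the libraries labelled shCDK12 and 45.4, 41.9 and 39.9 in those labelled shCDK12+OHT. No pair of groups overlapped. It was the integrin with the largest interaction, 1.97 ± 0.26 (adjusted p = 5.92e-06), made up of a fall in shNT (log2 fold change -0.92 ± 0.20, adjusted p = 0.00655) and a rise in the libraries labelled shCDK12 (log2 fold change 1.03 ± 0.15, adjusted p = 2.36e-05). Its level without OHT was 5.20-fold lower in the libraries labelled shCDK12 than in shNT (log2 fold change -2.38 ± 0.15, adjusted p = 1.21e-12). The ratio of ITGB8 to ITGB1 counts was 0.344 to 0.418 in shNT, 0.209 to 0.281 in shNT+OHT, 0.122 to 0.178 in the libraries labelled shCDK12 and 0.202 to 0.250 in those labelled shCDK12+OHT, so both groups with OHT overlapped.

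ITGB5, another vitronectin receptor subunit, stood at 71.4, 88.8 and 75.7 CPM in shNT, 82.1, 47.0 and 47.8 in shNT+OHT, 33.8, 31.3 and 37.0 in the libraries labelled shCDK12 and 57.5, 64.0 and 58.4 in those labelled shCDK12+OHT. In shNT+OHT, replicate 1 lay with the shNT libraries and the others near 47 CPM, and the change was not called (log2 fold change -0.40 ± 0.21, adjusted p = 0.209) except without that replicate. It rose 1.77-fold in the libraries labelled shCDK12 (log2 fold change 0.83 ± 0.11, adjusted p = 8.14e-06), and the interaction was 1.21 ± 0.24 (adjusted p = 0.000456). Its level without OHT was 2.33-fold below shNT (log2 fold change -1.22 ± 0.14, adjusted p = 2.79e-08).

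Among the collagen-binding subunits, ITGA2 stood at 57.9, 58.9 and 45.6 CPM in shNT, 31.0, 49.5 and 29.9 in shNT+OHT, 33.1, 30.5 and 31.1 in the libraries labelled shCDK12 and 33.6, 31.6 and 37.9 in those labelled shCDK12+OHT. The shNT+OHT group overlapped every other, and its change upon OHT was not called in shNT (log2 fold change -0.62 ± 0.22, adjusted p = 0.0623) or in the libraries labelled shCDK12 (log2 fold change 0.12 ± 0.12, adjusted p = 0.454). The change in shNT was called with no filter, in one fit of all libraries and without shNT+OHT replicate 2. It was lower without OHT in the libraries labelled shCDK12 (log2 fold change -0.80 ± 0.14, adjusted p = 3.18e-05), and its interaction of 0.77 ± 0.25 (adjusted p = 0.0152) was no longer called once the trend with gene length was removed. ITGA10 had means of 6.79 ± 0.843, 6.37 ± 4.51, 9.53 ± 1.49 and 8.88 ± 2.16 CPM (SD, n = 3) in shNT, shNT+OHT, and the libraries labelled shCDK12 and shCDK12+OHT, and ITGAE, which pairs with ITGB7 on lymphocytes of epithelia, 10.1 ± 4.33, 7.20 ± 0.466, 11.2 ± 1.72 and 9.85 ± 1.05 CPM in the same order. Neither was called in any comparison in which it was tested, with interactions of -0.20 ± 0.49 and 0.20 ± 0.41.

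**Figure D3:**
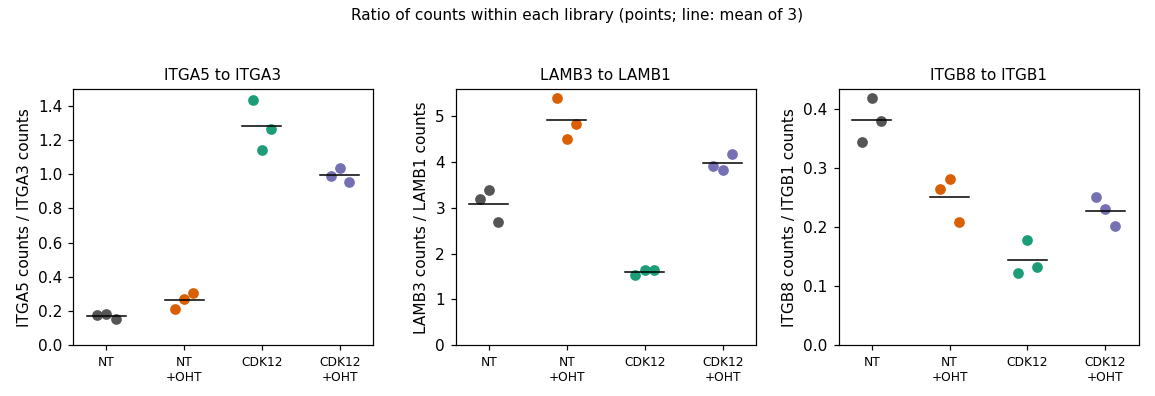
Ratio of raw counts of ITGA5 to ITGA3, LAMB3 to LAMB1 and ITGB8 to ITGB1 in each library (points; lines show the mean of 3), on linear axes from 0. The ITGA5 to ITGA3 ratio is 0.155 to 0.306 in the shNT groups and 0.956 to 1.43 in the libraries labelled shCDK12 with and without OHT.

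Among the laminin alpha chains, LAMA1, the chain of embryonic basement membranes, stood at 92.5, 85.7 and 81.7 CPM in shNT, 66.1, 70.1 and 71.3 in shNT+OHT, 107, 98.7 and 96.2 in the libraries labelled shCDK12 and 149, 156 and 149 in those labelled shCDK12+OHT. The libraries labelled shCDK12+OHT lay above every other, 2.21-fold over shNT+OHT (log2 fold change 1.15 ± 0.12, adjusted p = 4.32e-05). OHT raised it in the libraries labelled shCDK12 (log2 fold change 0.59 ± 0.08, adjusted p = 1.42e-05), while in shNT the groups did not overlap but the change was not called (log2 fold change -0.33 ± 0.15, adjusted p = 0.14). The interaction was 0.92 ± 0.15 (adjusted p = 6.72e-05).

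LAMA5, the alpha chain most widespread in adult basement membranes, stood at 35.4, 36.9 and 51.6 CPM in shNT, 24.4, 12.4 and 22.9 in shNT+OHT, 26.4, 31.4 and 30.9 in the libraries labelled shCDK12 and 49.2, 42.5 and 34.3 in those labelled shCDK12+OHT. The shNT libraries overlapped those labelled shCDK12+OHT, and the other groups lay below both. OHT lowered it 1.96-fold in shNT (log2 fold change -0.97 ± 0.26, adjusted p = 0.0207) and raised it in the libraries labelled shCDK12 (log2 fold change 0.50 ± 0.14, adjusted p = 0.006), giving an interaction of 1.44 ± 0.29 (adjusted p = 0.000442). The call in shNT was lost without shNT replicate 2, shNT replicate 3 or shNT+OHT replicate 3, and that in the libraries labelled shCDK12 without shCDK12+OHT replicate 1 or when libraries were thinned. Its lower level without OHT (log2 fold change -0.44 ± 0.17, adjusted p = 0.026) was not called without shNT replicate 3 or shCDK12 replicate 1, with upper-quartile normalization, with the length trend removed or with all libraries in one fit. ADRM1 overlaps LAMA5 on the other strand.

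LAMA2, the chain of muscle basement membranes, had means of 10.1 ± 1.41, 8.65 ± 6.01, 19.5 ± 5.22 and 21.3 ± 0.604 CPM in the 4 groups in the order above. It was higher in the libraries labelled shCDK12 than in shNT (log2 fold change 0.93 ± 0.24, adjusted p = 0.00162) and higher with OHT in both (log2 fold change 1.37 ± 0.43, adjusted p = 0.0223), the latter lost without any of the shCDK12+OHT libraries or with the length trend removed. In shNT+OHT, replicate 1 stood at 1.88 CPM and the others at 10.7 and 13.3.

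Among the beta chains, LAMB3, an epithelial chain, stood at 360.0, 384 and 369.9 CPM in shNT, 426, 324 and 371 in shNT+OHT, 125, 124 and 127 in the libraries labelled shCDK12 and 261, 257 and 259.8 in those labelled shCDK12+OHT. The shNT groups overlapped, and the libraries labelled shCDK12 lay close together and far below them. It was 2.97-fold lower without OHT in the libraries labelled shCDK12 (log2 fold change -1.57 ± 0.08, adjusted p = 3.81e-14), rose 2.07-fold upon OHT there (log2 fold change 1.05 ± 0.08, adjusted p = 6.35e-09) and was not called in shNT (log2 fold change 0.01 ± 0.12, adjusted p = 0.964; 95% interval -0.22 to 0.25). The interaction was 1.03 ± 0.14 (adjusted p = 6.07e-06).

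LAMB1, the common beta chain, stood at 113, 113 and 138 CPM in shNT, 79.0, 71.8 and 76.8 in shNT+OHT, 81.8, 75.4 and 77.7 in the libraries labelled shCDK12 and 66.8, 67.1 and 62.2 in those labelled shCDK12+OHT. It was highest in shNT and lower in all other groups. It fell upon OHT in shNT (log2 fold change -0.67 ± 0.15, adjusted p = 0.00846), a call lost without shNT replicate 3, and by less in the libraries labelled shCDK12 (log2 fold change -0.25 ± 0.09, adjusted p = 0.0301), where leaving out any library but shCDK12 replicate 2 ended the call, as did a fit with no filter and one of all libraries. The interaction was not called (log2 fold change 0.40 ± 0.17, adjusted p = 0.0552), so the falls are not shown to differ. The ratio of LAMB3 to LAMB1 counts was 2.68 to 3.40 in shNT, 4.52 to 5.40 in shNT+OHT, 1.53 to 1.64 in the libraries labelled shCDK12 and 3.83 to 4.17 in those labelled shCDK12+OHT, higher with OHT in both backgrounds. LAMB2, the chain of the neuromuscular junction and the kidney filter, had means of 76.8 ± 6.20, 77.9 ± 21.0, 67.1 ± 9.31 and 84.7 ± 4.44 CPM in the 4 groups and was called only upon OHT in the libraries labelled shCDK12 (log2 fold change 0.35 ± 0.11, adjusted p = 0.00969), a call lost without shCDK12+OHT replicate 2, in one fit of all libraries and when libraries were thinned to equal depth.

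Among the gamma chains, LAMC1, the gamma chain of most laminins, stood at 166, 174 and 186 CPM in shNT, 191, 185 and 197 in shNT+OHT, 119, 106 and 113 in the libraries labelled shCDK12 and 105, 104 and 114 in those labelled shCDK12+OHT. The libraries labelled shCDK12 were lower without OHT (log2 fold change -0.64 ± 0.10, adjusted p = 3.42e-06) and with it (log2 fold change -0.82 ± 0.11, adjusted p = 0.000225). The OHT change was not called in shNT (log2 fold change 0.13 ± 0.12; 95% interval -0.11 to 0.37) or in the libraries labelled shCDK12 (log2 fold change -0.07 ± 0.09; 95% interval -0.24 to 0.10). Its interaction was not called (log2 fold change -0.20 ± 0.14, adjusted p = 0.255), except with the length trend removed.

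LAMC3, a rarer gamma chain, moved against the other members with a called interaction. It stood at 5.86, 8.59 and 7.52 CPM in shNT, 23.5, 19.0 and 20.01 in shNT+OHT, 7.87, 8.60 and 6.66 in the libraries labelled shCDK12 and 4.62, 3.80 and 4.35 in those labelled shCDK12+OHT. The shNT+OHT libraries were above every other, and the libraries labelled shCDK12+OHT were below every other. OHT raised it 2.86-fold in shNT (log2 fold change 1.52 ± 0.30, adjusted p = 0.0037) and lowered it 1.84-fold in the libraries labelled shCDK12 (log2 fold change -0.88 ± 0.24, adjusted p = 0.00489). Its interaction of -2.39 ± 0.36 (adjusted p = 2.64e-05) was the largest in size and the only called negative one among the members tested, and without OHT the groups overlapped (log2 fold change 0.09 ± 0.29, adjusted p = 0.813).

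A further comparison asks how the libraries labelled shCDK12 differed from shNT without OHT. Of 19 members tested, 14 were called, 12 lower and 2 higher (73.7%, background 62%, of which 32.4% lower and 29.6% higher), with a median of -0.62 against -0.03 for all genes. Of the 11 integrins tested, 8 were lower and ITGA5 was higher. Of the 8 laminins tested, LAMA5, LAMB1, LAMB3 and LAMC1 were lower and LAMA2 was higher. The groups did not overlap for 16 of 19 members, against 64.5% of all genes tested. Newly made CDK12 RNA was not shown to be lower in these libraries, and its standing amount was not measured. This direction is therefore given by label only.

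With OHT in both, 9 of 19 members were called, 5 higher and 4 lower (47.4%, background 45.4%, of which 23.8% higher and 21.6% lower), a share near the background, and the median was 0.02 against 0.05 for all genes. The groups did not overlap for 12 of 19 members, against 55.2% of all genes tested. ITGA5, ITGA6, LAMA1, LAMA2 and LAMA5 were higher in the libraries labelled shCDK12+OHT, and ITGA3, LAMB3, LAMC1 and LAMC3 were lower. The call of ITGA6 was lost when libraries were thinned to equal depth. All 3 laminin alpha chains tested were thus higher and LAMC1 and LAMC3 lower. LAMC3 differed most, with a log2 fold change of -2.29 ± 0.25. The count rose to 15 without shNT+OHT replicate 1, when ITGA7, ITGAV, ITGB1, ITGB5, ITGB8 and LAMB2 were called as well. This comparison and the one upon OHT in shNT share the shNT+OHT libraries, and the comparison without OHT shares the shNT libraries with the latter. The comparison without OHT and the one upon OHT in the libraries labelled shCDK12 both rest on the libraries labelled shCDK12. Their results are therefore not independent, and the interaction uses these libraries as well.

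**Figure D4:**
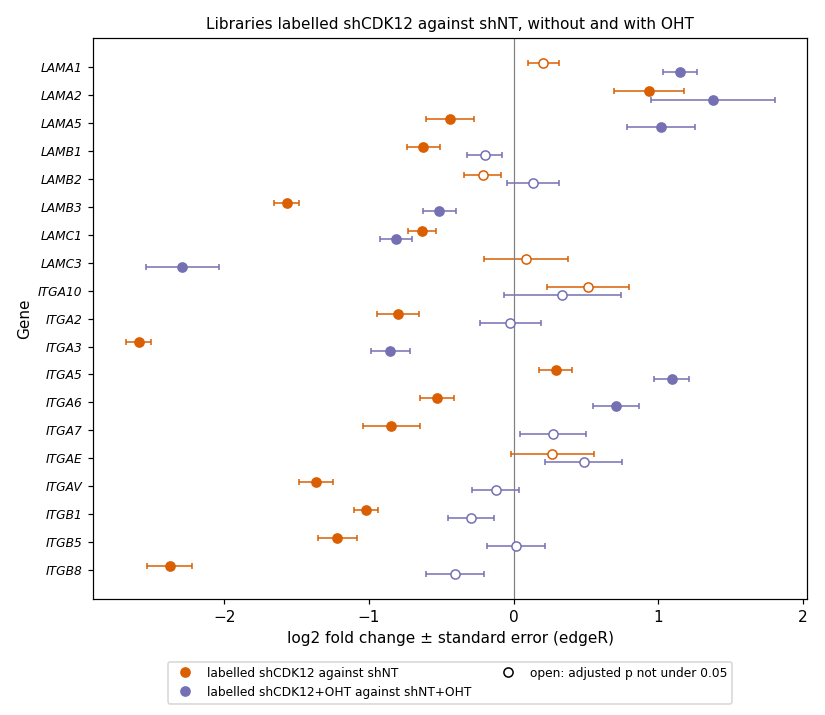
Log2 fold change of libraries labelled shCDK12 against shNT (x axis, bars show the standard error from edgeR) without OHT (orange) and with OHT in both groups (purple) for 19 members; filled points have an adjusted p under 0.05. Without OHT 12 members are called lower, and with OHT 4 are (ITGA3, LAMB3, LAMC1 and LAMC3).

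The 16 members under the filter in the fit of all libraries were ITGA1, ITGA4, ITGA8, ITGA9, ITGA11, ITGAL, ITGAM, ITGAX, ITGB2, ITGB3, ITGB4, ITGB6, ITGB7, LAMA3, LAMA4 and LAMB4. ITGA1, ITGAM and ITGB4 were tested upon OHT in the libraries labelled shCDK12, with log2 fold changes of -0.02 ± 0.25, 0.02 ± 0.27 and -0.21 ± 0.27 that were not called (adjusted p = 0.951, 0.964 and 0.539). ITGB2, the beta partner of the leukocyte subunits ITGAL, ITGAM and ITGAX, had 1 to 7 counts in any library. ITGA8 and LAMB4 had 0 counts in all 3 shNT+OHT libraries, which allows up to 3 counts.

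ITGAM, the alpha subunit of the complement receptor of myeloid cells, had 3, 3 and 2 counts in shNT, 3, 1 and 2 in shNT+OHT, 26, 46 and 18 in the libraries labelled shCDK12 and 31, 56 and 25 in those labelled shCDK12+OHT. In CPM this was 0.586 to 1.00, 0.580 to 0.940, 3.33 to 6.02 and 4.21 to 5.32, so both groups labelled shCDK12 lay above both others at each depth. With no filter on low counts it was called in both comparisons by label (adjusted p = 4.27e-05 without and 0.00184 with OHT). The leukocyte markers showed no such split: the summed level of the 6 ran from 2.11 to 4.93 CPM in the shNT groups and from 1.90 to 4.30 in the others.

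LAMA3 had 29, 23 and 6 counts in shNT, 5, 2 and 6 in shNT+OHT, 6, 16 and 11 in the libraries labelled shCDK12 and 23, 30 and 20 in those labelled shCDK12+OHT, or 3.01 to 6.79, 1.57 to 1.74, 1.39 to 2.04 and 2.85 to 3.63 CPM. Its mean was highest in shNT. In the libraries labelled shCDK12 the levels with OHT lay above those without it, with no call (adjusted p = 0.0907 with no filter). With no filter it was called lower in the libraries labelled shCDK12 than in shNT (adjusted p = 0.00705) and its interaction was positive (adjusted p = 0.0112). With no filter 6 of the 16 were called without OHT between the labels (ITGAM, ITGB4 and LAMA4 higher, ITGAX, ITGB6 and LAMA3 lower), against 39.6% of all genes so tested. With OHT in both groups 2 were called (ITGA1 and ITGAM, higher; all genes 28.9%), upon OHT in the libraries labelled shCDK12 2 (ITGA4 lower, ITGAX higher; 31.5%) and in the interaction 2 (ITGAX and LAMA3, positive; 26.8%).

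Since LAMA3 and LAMB3 are chains of the same laminin, and Myc binds the E-box, promoters were searched for the letters CACGTG (E-box) and TGANTCA (the AP-1 site), each of which reads the same on both strands. A match of one can share at most 2 bases with a match of the other. RefSeq promoters on GRCh38.p14, from 250 bases before to 50 after the start, were matched for 25 of the 35 members, with 32 entries. ITGA3, ITGA7, ITGA9, ITGAL, ITGAX, ITGB2, ITGB3, ITGB4, LAMA1 and LAMC3 had no entry. CACGTG was in 1 of the 32 entries, against 8.30% of promoters of the genes in the count table and 7.26% of all. TGANTCA was in 3 of 32, those of LAMA3, LAMB3 and ITGA5, against 6.33% and 7.71%. The matches that lie before the start are shown with up to 40 bases on each side, 5′ to 3′ on the strand of the gene, with the motif in capitals. That of ITGA5 did not lie wholly before the start and is not shown. Other promoter entries of ITGA6 and LAMB3 held no match. The ITGA6 stretch is at chr2:172427195-172427280 on the plus strand, those of LAMA3 are at chr18:23872855-23872941 and chr18:23872911-23872997 on the plus strand, and that of LAMB3 is at chr1:209651395-209651481 on the minus strand.
ITGA6: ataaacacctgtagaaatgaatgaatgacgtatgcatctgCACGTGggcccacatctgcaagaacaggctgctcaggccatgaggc
LAMA3, first match: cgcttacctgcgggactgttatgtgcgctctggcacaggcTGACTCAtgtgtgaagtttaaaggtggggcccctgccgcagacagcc
LAMA3, second match: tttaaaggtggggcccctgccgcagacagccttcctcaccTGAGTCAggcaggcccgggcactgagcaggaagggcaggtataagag
LAMB3: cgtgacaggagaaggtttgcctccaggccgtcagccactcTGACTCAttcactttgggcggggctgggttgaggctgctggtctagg
The E-box of ITGA6 ended 95 bases before the start, the AP-1 letters of LAMA3 118 and 62 bases before it and those of LAMB3 60 bases before it. Such letters are a description and do not show that a factor was bound in these cells.

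The genes that integrins and laminins work with were taken from 3 lists. Of 31 adhesion partners, the proteins that tie integrins to actin or sit beside them in the membrane, 30 were tested in the interaction, with 15 called positive and 3 negative (60.0%, background 45.2%, of which 25.6% positive and 19.6% negative). The largest were FERMT1, a kindlin that activates integrins (log2 fold change -2.49 ± 0.29, adjusted p = 1.35e-06), LIMS2, a scaffold of the ILK complex (log2 fold change 1.96 ± 0.51, adjusted p = 0.00412), and CD81, a tetraspanin (log2 fold change -1.75 ± 0.22, adjusted p = 2.38e-06). FERMT1 stood at 6.79, 7.81 and 9.52 CPM in shNT, 17.2, 19.8 and 14.2 in shNT+OHT, 51.0, 39.0 and 40.0 in the libraries labelled shCDK12 and 16.0, 16.6 and 16.1 in those labelled shCDK12+OHT. It was thus higher upon OHT in shNT and lower upon OHT in the libraries labelled shCDK12, the reverse of ITGA3, ITGA6, ITGAV and ITGB8. In the same list, 2 were called higher and 4 lower upon OHT in shNT, of 26 tested (23.1%, background 17.3%), and 16 higher and 3 lower upon OHT in the libraries labelled shCDK12, of 30 tested (63.3%, background 48.9%).

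Of 28 basement membrane partners and other laminin receptors, 19 were tested in the interaction, with 9 called, all positive (47.4%, background 25.6% positive and 45.2% in either direction). At an adjusted p under 0.05 in edgeR the members named by size were NTN4, a netrin that binds laminin (log2 fold change 1.95 ± 0.46, adjusted p = 0.00197), NID1, which links laminin to collagen (log2 fold change 1.83 ± 0.31, adjusted p = 8.01e-05), and COL4A1, a chain of the basement membrane collagen (log2 fold change 1.77 ± 0.20, adjusted p = 1.02e-06). COL4A1 stood at 90.4, 101 and 103 CPM in shNT, 46.7, 33.0 and 44.9 in shNT+OHT, 32.7, 26.8 and 25.9 in the libraries labelled shCDK12 and 43.5, 39.2 and 43.9 in those labelled shCDK12+OHT. The shNT libraries lay above all others, and its OHT change was -1.21 ± 0.17 in shNT and 0.58 ± 0.13 in the libraries labelled shCDK12. Upon OHT in shNT 6 of 16 tested were called, all lower (37.5%, background 8.29% lower and 17.3% in either direction), and upon OHT in the libraries labelled shCDK12 11 of 21 were higher and 2 lower (61.9%, background 48.9%, of which 27.5% higher).

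Of 22 other integrin ligands, 13 were tested in the interaction, with 7 called positive and 1 negative (61.5%, background 45.2%). The largest were FN1, fibronectin and the main ligand of the receptor with ITGA5 (log2 fold change 2.31 ± 0.16, adjusted p = 7.78e-10), COL5A1, a fibrillar collagen chain (log2 fold change 2.07 ± 0.34, adjusted p = 6.51e-05), and EDIL3, a secreted ligand of ITGAV receptors (log2 fold change 1.97 ± 0.20, adjusted p = 2.29e-07). FN1 stood at 656, 653 and 669 CPM in shNT, 393, 310.2 and 338 in shNT+OHT, 41.0, 35.2 and 38.5 in the libraries labelled shCDK12 and 104, 88.1 and 108 in those labelled shCDK12+OHT. It was 17.4-fold lower in the libraries labelled shCDK12 than in shNT (log2 fold change -4.12 ± 0.10, adjusted p = 9.79e-21), while ITGA5, part of its receptor, was higher there by 0.29. Upon OHT in shNT 4 of 11 ligands tested were called, all lower (36.4%, background 8.29% lower and 17.3% in either direction). Upon OHT in the libraries labelled shCDK12 7 of 14 were called, all higher (50.0%, near the background of 48.9% in either direction, of which 27.5% higher). The lists of partners, ligands and markers share COL1A1, COL1A2, SPARC and CDH1.

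The mesenchymal markers moved in the direction of the members' median in every comparison except that with OHT in both groups. Their summed level ran from 887 to 983 CPM in shNT, 708 to 745 in shNT+OHT, 388 to 395 in the libraries labelled shCDK12 and 489.7 to 507 in those labelled shCDK12+OHT. Of the 5 tested, all 5 were called lower in the libraries labelled shCDK12 than in shNT (background 32.4% lower). A positive interaction was called for 4 of the 5 (background 25.6% positive). With OHT in both groups their median was -0.39, against 0.02 for the members, and 2 were called lower (background 21.6%). The epithelial markers ran from 9.90 to 15.5 CPM over all libraries. The part of cell state in the members' changes was not tested.

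Gene length moved with the changes as well. The members tested in the interaction spanned a median of 79.4 kb, against 30.2 kb for all genes tested. Upon OHT in shNT the median log2 fold change of all genes went from 0.18 in the shortest of 4 equal length classes to -0.22 in the longest, and in the interaction from -0.18 to 0.38. The members' medians in the longest class were -0.59 (9 members) and 0.77 (11 members), and in the class below it -0.46 and 1.10 (5 members each), against -0.08 and 0.16 for all genes there. With a loess trend in gene length removed in each library, 4 members were called upon OHT in shNT in place of 7, with ITGA6, ITGAV and LAMA5 no longer among them. Their log2 fold changes were then -0.50, -0.41 and -0.81, against -0.68, -0.59 and -0.97 with the trend in place. In the interaction 13 were called, ITGA2 no longer among them and LAMC1, negative, in its place.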

How the data were processed

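Per the labels, 10 µg of mouse RNA was added to 40 µg of RNA from the U2OS-MycER cells before EU-labelled RNA was captured, and stranded total RNA libraries were made. The authors deposited 1 table of raw counts per gene, by Entrez identifier, without normalization. The submitters' processing notes name STAR 2.7.5c, featureCounts 1.4.5-p1 and hg19. The roles of these tools, the annotation, the strand setting and the treatment of mouse reads are not given in the sources used here, and the table holds no mouse rows, so total RNA output cannot be seen. Reads of genes on opposite strands or of near-identical copies could be shared.

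RefSeq gave a symbol for 23284 Entrez identifiers, and the other 150 genes were tested unnamed. Tests were run in edgeR 4.0.16 under R 4.3.3 (TMM over all genes, quasi-likelihood test, Benjamini-Hochberg adjustment over all genes tested, threshold 0.05), on genes whose scaled count averaged above 32 in the fitted libraries. Pairs of groups were fitted on their 6 libraries and the interaction on all 12. Standard errors were taken as the fold change over the square root of F. The alternatives were upper-quartile normalization, DESeq2 1.42.0, a block for the replicate number, 2 other filters, 1 fit of all 12 libraries, thinning to 1251695 counts, removal of a trend in gene span and leaving out each library. No 2 libraries of the same group agreed within sampling noise (chi-square per degree of freedom 2.69 to 9.31). Libraries of different groups were not compared in this way.

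Members with a mean scaled count above 32 over the 12 libraries were given levels and fold changes. Values in each library were given for the 12 with the largest called interaction and for ITGB1, ITGAV, ITGA5, LAMB1 and LAMC1, and 3 genes per partner list by the same measure. The members, lists and this rule were chosen with earlier results of these data known. A gene that the symbol rule also takes is not reported here. Low members with values, the ratios of counts and the motifs were picked after values were seen. On simulated counts with genes changed 2-fold, 158 of 193 were recovered upon OHT in shNT (14 false calls among 10262 genes), 183 of 194 upon OHT in the libraries labelled shCDK12 (16 among 12500) and 121 of 196 in the interaction (9 among 11718). These simulations changed few genes, with rises and falls in equal number, and gave all others the same mean in every group. Far more genes were called in the data, so the figures may not carry over.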

Additional observations from a re-analysis of the deposited data

Results flagged for a closer look

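For 13 members the OHT response differed between the shRNA backgrounds by the interaction test over all 12 libraries (edgeR's quasi-likelihood test, adjusted p under 0.05), relative to a median of 0.10 over all genes. On the log2 scale, positive values are a response higher in the libraries labelled shCDK12. The laminins were LAMC3 (-2.39), LAMA5 (1.44), LAMB3 (1.03) and LAMA1 (0.92). The integrins were ITGB8 (1.97), ITGA3 (1.72), ITGAV (1.22), ITGA6 (1.22), ITGB5 (1.21), ITGA7 (1.10), ITGA5 (0.78), ITGA2 (0.77) and ITGB1 (0.71). LAMC3, ITGB8, ITGA3, ITGA6, ITGAV and LAMA5 were also called in opposite directions in the 2 backgrounds. With 3 libraries a group, single libraries were not tested for standing apart.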

How the results depend on the processing

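Of 100 fold changes (the members and CDK12 in each comparison in which they were tested), 61 were called. Of these, 47 kept their call under every alternative run in which the gene was tested, 14 lost it under at least 1, and 0 changed sign. A run in which a gene fell under the filter was not counted as a lost call. Of the 39 not called, 17 gained a call under at least 1 alternative and 15 changed sign under at least 1. The number of members called upon OHT in shNT was 7 and became 4 with the length trend removed and 3 to 9 on leaving out a library (3 without shNT replicate 3, 4 without shNT replicate 2 or shNT+OHT replicate 3). With OHT in both groups it was 9, and 8 to 15 on leaving out a library (15 without shNT+OHT replicate 1). Upon OHT in the libraries labelled shCDK12 it was 14, and 9 when libraries were thinned (ITGA7 and LAMC3 no longer passed the filter, and ITGA6, LAMA5 and LAMB2 were tested but not called), and 12 to 14 on leaving out a library. Without OHT it was 14, and 11 to 20 over the alternatives (20 with no filter, where all 35 members were tested; 12 to 14 on leaving out a library), and in the interaction 13, and 11 to 15 (13 to 15 on leaving out a library). The cause of these shifts was not tested.

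Pairing by replicate number was not borne out for most pairs of libraries. Deviations from the group means had a correlation of -0.093 to 0.317 for equal numbers (2 of the 18 pairs passed 0.1) and of -0.357 to 0.098 for unequal ones. These 2 pairs joined shNT+OHT to the libraries labelled shCDK12, at 0.287 for replicate 1 and 0.317 for replicate 2. Crossing these 2 numbers between the same groups gave -0.357 and -0.242. A factor shared by these libraries was not tested. With the replicate number as a block the counts of members called were 7, 14, 9, 14 and 13 in the order OHT in shNT, label without OHT, label with OHT, OHT in the libraries labelled shCDK12, and interaction, each as without the block, and no call changed.

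Changes of sign concerned values that were not called. Upon OHT in shNT, LAMB2 was at -0.0417 with the length trend removed and -0.0279 when thinned, and LAMB3 at -0.0115 when thinned. Leaving out a library there gave -0.131 to 0.00319 for ITGA5, -0.239 to 0.221 for LAMB2 and -0.0782 to 0.134 for LAMB3. Between the labels without OHT, CDK12 was at 0.0145 with upper-quartile normalization and 0.00587 with the length trend removed, and LAMC3 at -0.0746 to 0.257 on leaving out a library. With OHT in both groups, ITGB5 was at -0.0310 by DESeq2, -0.0457 with upper-quartile normalization, -0.00547 in the single fit, -0.314 with the length trend removed and -0.200 when thinned, and ITGA2 at 0.0895 when thinned. Leaving out a library there gave -0.185 to 0.338 for ITGB5, -0.171 to 0.151 for ITGA2 and -0.0739 to 0.397 for LAMB2. Upon OHT in the libraries labelled shCDK12, ITGAM was at -0.0488 by DESeq2, -0.0447 with upper-quartile normalization and -0.0577 with the length trend removed, and LAMA2 at -0.110 with the length trend removed. Leaving out a library there gave -0.0842 to 0.0985 for ITGA1, -0.255 to 0.0739 for ITGA10, -0.160 to 0.173 for ITGAM and -0.0699 to 0.223 for LAMA2. In the interaction, ITGAE was at -0.102 and LAMA2 at -0.105 with the length trend removed, and leaving out a library gave -0.440 to 0.486 for ITGA10, -0.126 to 0.407 for ITGAE and -0.161 to 1.28 for LAMA2. The shallowest library, shNT+OHT replicate 2, held 1251695 counts, while leaving out shNT+OHT replicate 1 moved the counts with OHT and in the interaction.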
